A study of Mus musculus with 6 samples.

Results

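The 37 genes described here encode the machinery that carries glucose carbon into the cell, through glycolysis to pyruvate and lactate, across the plasma membrane as lactate, and into the mitochondrion for oxidation to acetyl-CoA. They were chosen by gene symbol, with earlier results of the comparison below already known, so that their calls in it are given as a description and support nothing. All 37 were found among the 55357 genes of the deposited counts. They also all reached 6 reads in some library, the filter that left 21876 genes for testing. The lowest count of any of them in any library was 128 reads.

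RNA-seq had been run on 6 mouse primary neuronal cultures, prepared from the cortex and hippocampus of wild-type C57BL/6N embryos at E18, in 2 groups of 3. Every culture received a lentivirus built on the pLVTHM plasmid on day in vitro 4 (DIV4) and was collected at DIV14. The shCtrl cultures received a scrambled shRNA, and the shPla2g4e cultures received the shRNA sequence sh2, directed against *Pla2g4e*, a calcium-dependent N-acyltransferase that makes the precursors of N-acylethanolamines. A single shRNA sequence stood for the knockdown, no culture was left untransduced, and no source used here says whether the 3 libraries of a group came from separate preparations, so that p-values measure only the spread between these libraries.

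Glycolysis splits glucose into pyruvate in the cytosol. Pyruvate is either reduced to lactate by lactate dehydrogenase, a tetramer of A subunits (*Ldha*) and B subunits (*Ldhb*), or imported into mitochondria, where the pyruvate dehydrogenase complex turns it into acetyl-CoA. In the brain, astrocytes are known for releasing lactate and neurons for taking it up and oxidizing it, a division in which the A subunit and the transporters encoded by *Slc16a1* and *Slc16a3* are usually assigned to astrocytes, and the B subunit and the transporter encoded by *Slc16a7* to neurons.

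*Pla2g4e* (ENSMUSG00000050211) measured 38.0, 35.1 and 35.4 CPM in shCtrl (CPM, reads relative to library size after TMM scaling) and 21.8, 14.1 and 18.7 CPM in shPla2g4e. The groups did not overlap, and the log2 fold change was −0.99 (SE 0.13, adjusted p = 0.000124, edgeR). At an adjusted p of 0.01, 876 genes were lower and 543 higher in shPla2g4e (differentially expressed genes, DEGs), which was 6.49% of those tested. Library totals ranged from 17054717 to 23570180 reads. The libraries also held RNA of cells other than neurons. Summed over 9 neuronal markers the level was 5447 to 5878 CPM in shCtrl and 4689 to 5144 CPM in shPla2g4e, and over 10 astrocyte markers 2913 to 3738 and 1979 to 3172 CPM. Oligodendrocyte lineage markers summed to 572 to 648 and 588 to 724 CPM, markers of proliferating cells to 61.5 to 85.4 and 55.9 to 61.1 CPM, endothelial and mural markers to 28.2 to 72.3 and 33.3 to 78.3 CPM, and microglial markers to 21.4 to 28.9 and 24.3 to 24.8 CPM. Markers called in edgeR were 4 lower and 1 higher of 9 neuronal (5 and 2 with the replicate number as a block), 3 lower of 10 astrocytic (7 lower and 1 higher with the block) and 1 lower of 6 proliferation markers (2 with the block). None was called among oligodendrocyte, endothelial and mural, and microglial markers, of which 1, 0 and 2 were lower and 0, 1 and 1 higher at an unadjusted p under 0.05. With the block, *Olig2* of the oligodendrocyte lineage was called lower (adjusted p = 0.000528) and endothelial *Kdr* higher (8.9e-05). Of the defining markers, endothelial *Cldn5* was at 0 in all 6 libraries, and *P2ry12*, *Tmem119* and *Itgam* of microglia were at 0 in some.

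Of the 37 genes, 2 were DEGs and both were lower in shPla2g4e: *Ldhb* and *Slc16a3*. Across the whole table, 4.00% of genes were lower and 2.48% higher. None of the 37 was called higher by edgeR or limma and 1 (*Slc16a1*) by DESeq2. At an unadjusted p under 0.05 in edgeR 7 were higher and 3 lower. Over all 21876 genes tested, a p of 0.0475 had rank 5523, so that at least 5523 genes lay under 0.05 in either direction. Nothing about the members is read from that count. Of the 37, 17 had a lower and 20 a higher fitted level, with a median log2 fold change of 0.03, as over all genes tested to 2 decimals. Levels in shCtrl and shPla2g4e libraries did not overlap for 8 of the 37 (*Ldhb*, *Slc16a3*, *Slc16a1*, *Slc16a7*, *Pdp1*, *Dld*, *Pdk1* and *Mpc1*), against 30.0% of all genes. No label states that the libraries were paired, and the replicate numbers were treated as pairs from correlations in these same data. Once the edgeR model held the replicate number as a block, 8 of the 37 were DEGs, where 15.5% of all genes were. Of the 8, 3 were lower (*Ldhb*, *Slc16a3* and *Slc16a7*) and 5 higher (*Slc16a1*, *Pgk1*, *Bsg*, *Hk2* and *Ldha*). For *Ldhb* the adjusted p in edgeR was 3.19e-07 without the block and 7.64e-32 with it, at log2 fold changes of −1.85 and −1.87. Blocked p-values lean on a spread shared across genes, since 6 libraries leave little to estimate it per gene. They are not read as stronger evidence. At an adjusted p of 0.05 without the block, 3 were lower and 2 higher, against 12.9% of all genes. The members had been chosen with this comparison known, so nothing is read from these shares.

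**Figure D1:**
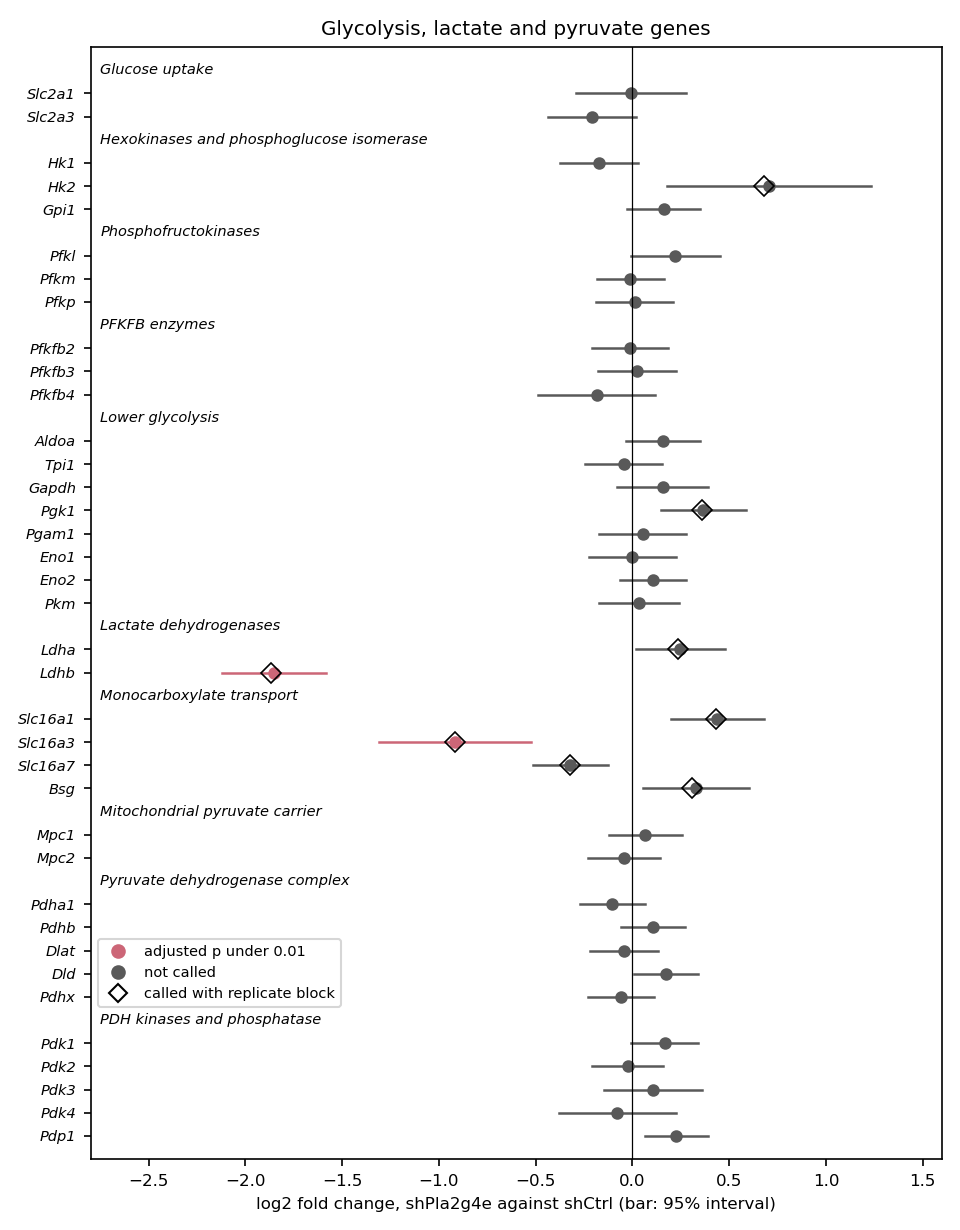
Log2 fold change (x axis) of each of the 37 genes (y axis), grouped by role, with its 95% interval from edgeR. Red points (*Ldhb* at −1.85 and *Slc16a3* at −0.92) had an adjusted p under 0.01, and open diamonds mark the 8 genes called with the replicate block, at their blocked estimate.

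Glucose enters neurons mainly through *Slc2a3* (GLUT3) and enters glia and endothelium through *Slc2a1* (GLUT1). *Slc2a3* had 274 to 365 CPM in shCtrl and 238 to 294 CPM in shPla2g4e, lower in 3 of 3 replicate pairs, with a log2 fold change of −0.21 (SE 0.11, adjusted p = 0.245, edgeR). *Slc2a1* had 32.9 to 54.0 CPM in shCtrl and 44.3 to 45.3 CPM in shPla2g4e. Its shCtrl libraries spread on both sides of the shPla2g4e libraries, and the log2 fold change was −0.01 (95% interval −0.29 to 0.27). Neither glucose transporter passed the test.

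Hexokinases trap glucose by phosphorylating it. *Hk1*, the main brain enzyme, had 408 to 511 CPM in shCtrl and 383 to 441 CPM in shPla2g4e (log2 fold change −0.17, SE 0.10, adjusted p = 0.279, edgeR). *Hk2*, the inducible enzyme of muscle and growing cells, had 11.5, 6.44 and 6.70 CPM in shCtrl and 14.6, 17.2 and 8.11 CPM in shPla2g4e. All 3 pairs were higher, but shPla2g4e replicate 3 lay below shCtrl replicate 1, so that the groups overlapped. The log2 fold change was 0.71 (SE 0.25, adjusted p = 0.0762, edgeR), and 0.68 with the replicate block (adjusted p = 0.000265). *Hk1* made up 96.9% to 98.2% of the summed CPM per kilobase of *Hk1* and *Hk2*, other hexokinases left out, in shCtrl and 94.7% to 97.1% in shPla2g4e. *Gpi1*, the phosphoglucose isomerase of the next step, had 679 to 792 and 732 to 859 CPM (log2 fold change 0.16, adjusted p = 0.276).

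Phosphofructokinase commits the sugar to glycolysis and is built from muscle (*Pfkm*), liver (*Pfkl*) and platelet (*Pfkp*) subunits. *Pfkl* had 123, 112 and 96.4 CPM in shCtrl and 138, 141 and 108 CPM in shPla2g4e. The groups overlapped at 108 CPM, with a log2 fold change of 0.22 (SE 0.11, adjusted p = 0.212, edgeR). *Pfkm* and *Pfkp* had log2 fold changes of −0.01 and 0.01, with 95% intervals of −0.18 to 0.16 and −0.19 to 0.22. *Pfkm* gave 55.9% ± 1.52 (SD, n = 3) of the phosphofructokinase reads per kilobase in shCtrl and 54.8% ± 4.53 in shPla2g4e, and the 3 subunits kept overlapping shares. The PFKFB enzymes make and break down the fructose bisphosphate that activates phosphofructokinase. *Pfkfb3*, a form of high kinase activity, had a log2 fold change of 0.03, *Pfkfb2* of −0.01 and *Pfkfb4* of −0.18 (SE 0.14), and none of the 3 passed the test.

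The 8 genes of lower glycolysis run from aldolase to pyruvate kinase. None was a DEG without the block, 6 were fitted higher and 2 lower, and their median log2 fold change was 0.08. *Pgk1*, phosphoglycerate kinase, had 136, 112 and 118 CPM in shCtrl and 158, 179 and 134 CPM in shPla2g4e. It was higher in all 3 pairs, although shPla2g4e replicate 3 lay just below shCtrl replicate 1. Its log2 fold change was 0.37 (SE 0.10, adjusted p = 0.0287, edgeR), and with the block 0.36 (adjusted p = 5.52e-05). *Aldoa* (aldolase, 0.16), *Gapdh* (0.16), *Eno2* (the neuronal enolase, 0.11), *Pgam1* (phosphoglycerate mutase, 0.05), *Pkm* (pyruvate kinase, 0.03), *Eno1* (0.00) and *Tpi1* (triosephosphate isomerase, −0.05) were not called in either fit. *Eno2* made up 59.1% to 61.1% of the summed CPM per kilobase of *Eno1* and *Eno2*, other enolases left out, in shCtrl and 58.7% to 65.4% in shPla2g4e.

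Levels of these enzymes moved with the replicate number. The library of replicate 3 was the lowest of its group in both groups for 6 of the 8 genes of lower glycolysis and for 17 of the 37 genes (45.9%), against 24.2% of the 11018 genes whose mean log2 CPM reached 3. Summed over the 17 glycolytic enzymes listed, the level was 6706, 6259 and 5630 CPM in shCtrl replicates 1 to 3 and 6746, 6911 and 5891 CPM in shPla2g4e replicates 1 to 3. The groups overlapped in this sum, and shCtrl replicates 1 and 3 differed by more than the libraries of any pair.

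Several of these enzymes have processed pseudogenes, and reads that map to several places were left out of the deposited counts. The share of 50-base stretches of the transcript that also occur in another gene was 82.5% for *Gapdh* (213 pseudogenes), 72.2% for *Eno1*, 68.0% for *Pgk1*, 41.5% for *Pgam1* and 34.4% for *Pkm*, so their levels are lower bounds. Of the 37 genes, 14 shared at least 10% of their stretches (37.8%), against 18.2% of genes tested with a value, and the other 9 ranged from 13.5% (*Aldoa*) to 30.3% (*Pdhb*). Reads shared with a pseudogene are in neither count, so their part in the differences was not tested. *Slc16a1*, *Slc16a3*, *Bsg* and *Hk2* shared no such stretch. The exons of *Pfkm*, *Pfkfb2*, *Pkm*, *Mpc1* and *Pdha1* overlapped another gene over at least 10% of their bases, as did those of 14.97% of genes tested, and reads of overlapping genes cannot be told apart there.

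The largest difference in the set was in *Ldhb* (ENSMUSG00000030246, chromosome 6, 142435975 to 142453683, minus strand, GRCm39), the B subunit of lactate dehydrogenase. Its level was 188, 199 and 225 CPM in shCtrl and 47.7, 50.3 and 72.2 CPM in shPla2g4e. The highest shPla2g4e library lay well below the lowest shCtrl library, and 27.8% of the shCtrl mean was left. The log2 fold change was −1.85 (SE 0.13, 95% interval −2.12 to −1.58, adjusted p = 3.19e-07, edgeR), and *Ldhb* had the 14th smallest p of the 21876 genes. In the 3 replicate pairs the log2 ratio was −1.98, −1.98 and −1.64. In a bulk library, fewer cells of a type and less RNA per cell cannot be told apart. Beside it, 4 of 9 neuronal markers were called lower and 1 higher, and 3 of 10 astrocyte markers were called lower, the others not called. Their part in the level of *Ldhb* was not tested. About 27.01% of the 50-base stretches of *Ldhb* occur in 1 pseudogene, which itself held 0.127 and 0.0587 CPM in the group means.

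*Ldha*, the A subunit, did not share this pattern. It had 586, 567 and 493 CPM in shCtrl and 674, 744 and 535 CPM in shPla2g4e, higher in all 3 pairs but with overlapping groups. Its log2 fold change was 0.25 (SE 0.11, adjusted p = 0.162, edgeR), and 0.24 with the replicate block (adjusted p = 0.00202). Without the block it ranged from 0.14 when shPla2g4e replicate 2 was left out (adjusted p = 0.510) to 0.37 when shPla2g4e replicate 3 was left out (adjusted p = 0.0155). *Ldhb* therefore made up 40.4%, 42.5% and 49.1% of the summed CPM per kilobase of *Ldha* and *Ldhb* in the shCtrl libraries and 12.98%, 12.5% and 22.2% in the shPla2g4e libraries. Means were 44.0% ± 4.53 and 15.9% ± 5.45 (SD, n = 3), without overlap. With reads not divided by gene length the means were 27.2% and 8.28%, so that the share itself depends on the length used while the order of the groups does not. The sum of *Ldha* and *Ldhb* was 293 to 298 CPM per kilobase in shCtrl and 208 to 257 in shPla2g4e, again without overlap. As plain CPM, in which the longer *Ldha* weighs more, the sums were 719 to 774 and 607 to 794 and overlapped.

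**Figure D2:**
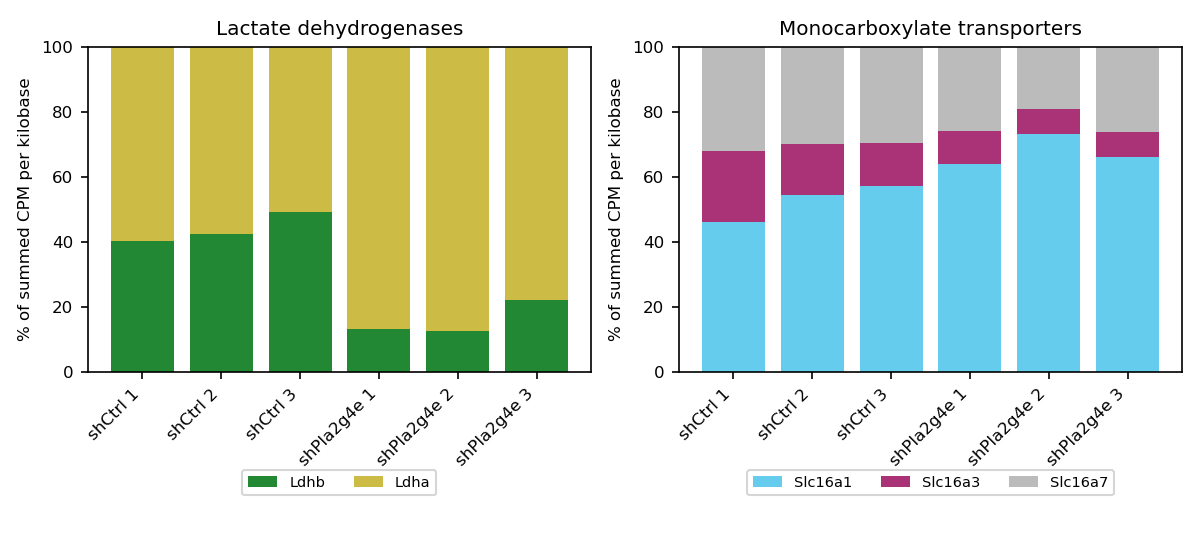
Share of the summed CPM per kilobase (y axis, %) in each library (x axis, 3 shCtrl and 3 shPla2g4e libraries) for *Ldha* and *Ldhb* (left) and for the 3 monocarboxylate transporters (right). The *Ldhb* share was 40.4% to 49.1% in shCtrl and 12.5% to 22.2% in shPla2g4e, and the *Slc16a1* share 45.97% to 57.1% and 63.9% to 73.2%.

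The sequences of the shRNA, of the longest match to its target among the 37 genes (*Ldhb*, followed by *Hk1* with 11 bases and *Pfkp* with 10) and of the seed sites in their 3′ UTRs are shown because an shRNA can pair with mRNAs other than its own. The target of sh2 lies in the coding sequence of *Pla2g4e*, at nucleotides 1495 to 1513 of ENSMUST00000090071 (chromosome 2, 120182753 to 120182771, minus strand, GRCm38). Its capitals mark the stretch that pairs with the seed, bases 2 to 8 of the guide, and the capitals of the guide mark the seed itself. In the *Ldhb* line, capitals mark the 13 bases shared with the target, in the coding sequence at nucleotides 802 to 826 of ENSMUST00000032373, with 6 bases on either side. In the last 6 lines they mark a seed site in the 3′ UTR, with 8 bases on either side. The site of *Slc16a3*, the one called gene among the 6, lies within nucleotides 1895 to 1917 of ENSMUST00000168579 (chromosome 11, 120958428 to 120958450, plus strand, GRCm38).
sh2 target: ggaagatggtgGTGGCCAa
sh2 guide: tTGGCCACcaccatcttcc
Ldhb: gtgcatAAGATGGTGGTGGacagtg
Slc2a1: acaactccGTGGCCAtaccctgt
Slc2a3: cactccctGTGGCCAgttgggat
Pfkm: gatcagctGTGGCCAggagctgg
Pfkp: tgcatgcaGTGGCCAtagagtcc
Slc16a3: tccccactGTGGCCAaggaccta
Pdk1: aaggagagGTGGCCAgggttagg

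The 13 bases of *Ldhb* correspond to bases 3 to 15 of the target and would pair with bases 5 to 17 of the guide, so that bases 2 to 4 of the guide lie outside the match. *Ldhb* was the single member with a match of 13 or more bases, which 58 of 21752 genes tested had (0.267%). Taking the longest coding transcript of each gene, its 3′ UTR held a seed site in 6 of the 37 genes (16.2%) and in 2103 of 15816 genes with a coding transcript (13.3%). The 6 genes were *Slc16a3* (log2 fold change −0.92), *Slc2a3* (−0.21), *Pfkm* (−0.01), *Slc2a1* (−0.01), *Pfkp* (0.01) and *Pdk1* (0.17). These matches are a description, and their part in the levels was not tested.

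Monocarboxylate transporters move lactate and pyruvate, with a proton, across the plasma membrane. *Slc16a3* (ENSMUSG00000025161, chromosome 11, 120839306 to 120851694, plus strand, GRCm39), the low-affinity transporter MCT4 of lactate-releasing cells, had 27.2, 20.03 and 15.7 CPM in shCtrl and 13.3, 11.1 and 8.74 CPM in shPla2g4e. Every shPla2g4e library was below every shCtrl library. The log2 fold change was −0.92 (SE 0.18, 95% interval −1.31 to −0.52, adjusted p = 0.00359, edgeR), with log2 ratios of −1.04, −0.85 and −0.85 in the pairs. The call was lost in some fits with a library left out, and the estimate shrank mainly without shCtrl replicate 1. The log2 fold change was −0.69 (adjusted p = 0.0229) without shCtrl replicate 1, −0.95 (0.0141) without shCtrl replicate 2 and −0.92 (0.0106) without shPla2g4e replicate 2, each short of the threshold. Of 10 astrocyte markers, 8 were fitted lower (3 of them called) and 2 higher, and their summed levels overlapped between groups. Their part in the level of *Slc16a3* was not tested.

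*Slc16a1*, the widely expressed transporter MCT1, went the other way. It had 47.3, 58.2 and 55.5 CPM in shCtrl and 68.5, 86.6 and 63.2 CPM in shPla2g4e, without overlap. The log2 fold change was 0.44 (SE 0.11, adjusted p = 0.0167, edgeR), and 0.43 with the replicate block (adjusted p = 9.42e-06). The part of the astrocyte markers in the level of *Slc16a1* was not tested either. *Slc16a7*, the high-affinity neuronal transporter MCT2, had 88.2, 85.6 and 76.8 CPM in shCtrl and 73.8, 60.0 and 66.7 CPM in shPla2g4e. These groups did not overlap either, with a log2 fold change of −0.32 (SE 0.09, adjusted p = 0.0303, edgeR), and −0.32 with the block (adjusted p = 0.000433). *Bsg*, the chaperone basigin that carries MCT1 and MCT4 to the membrane, had 569, 539.8 and 473 CPM in shCtrl and 664, 811 and 509.5 CPM in shPla2g4e. It was higher in each pair, the groups overlapped at replicate 3, and the log2 fold change was 0.33 (SE 0.13, adjusted p = 0.112, edgeR) or 0.31 with the block (adjusted p = 0.000153). Without the block, it was 0.16 (adjusted p = 0.479) when shPla2g4e replicate 2 was left out and 0.48 (adjusted p = 0.00348) when shPla2g4e replicate 3 was left out.

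The makeup of the 3 transporters did not overlap between groups, while their sum did. *Slc16a1* gave 45.97%, 54.5% and 57.1% of the summed CPM per kilobase in shCtrl and 63.9%, 73.2% and 66.3% in shPla2g4e. *Slc16a3* gave 13.4% to 21.99% and 7.62% to 10.3%, and *Slc16a7* 29.5% to 32.0% and 18.96% to 26.1%, none of which overlapped. The sum was 21.99 to 24.1 CPM per kilobase in shCtrl and 21.6 to 26.7 in shPla2g4e.

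**Figure D3:**
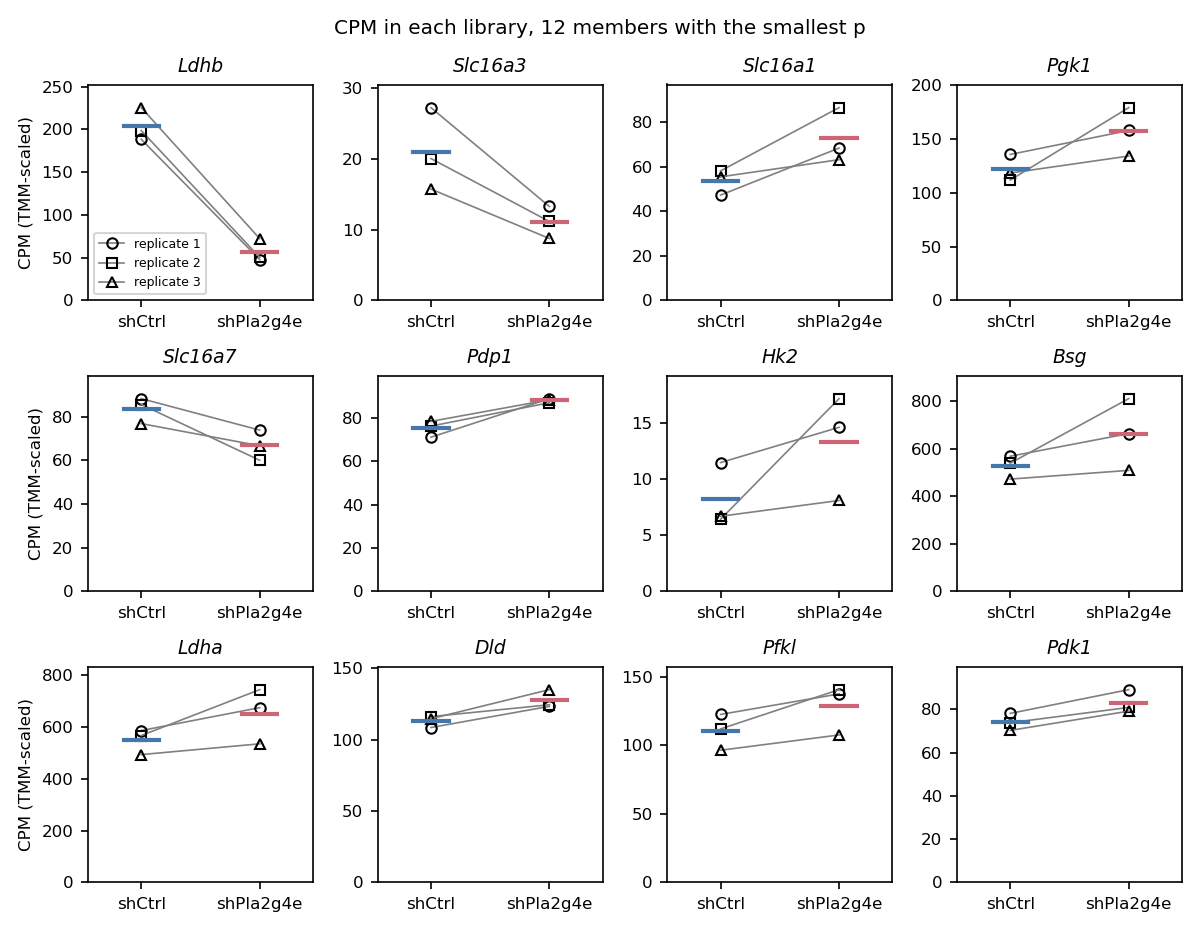
CPM (y axis, from 0) in each library for the 12 genes with the smallest p; lines join libraries with the same replicate number, and thick bars are group means of 3 libraries. *Ldhb* lay at 188 to 225 CPM in shCtrl and 47.7 to 72.2 CPM in shPla2g4e, and for *Hk2*, *Pgk1*, *Bsg*, *Ldha* and *Pfkl* the shPla2g4e library of replicate 3 lay within the shCtrl range.

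Pyruvate enters mitochondria through a carrier of 2 subunits. *Mpc1* had 31.8 to 34.4 CPM in shCtrl and 34.6 to 35.3 CPM in shPla2g4e, values that did not overlap but lay close together (log2 fold change 0.07, SE 0.09). *Mpc2* had 55.7 to 64.2 and 53.4 to 60.0 CPM (log2 fold change −0.04). Neither subunit passed the test.

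The pyruvate dehydrogenase complex joins a decarboxylase (*Pdha1*, *Pdhb*), an acetyltransferase (*Dlat*), its binding protein (*Pdhx*) and a dihydrolipoamide dehydrogenase (*Dld*) that other complexes share. None of the 5 was a DEG with or without the block. *Dld* had 109, 116 and 115 CPM in shCtrl and 123, 125 and 135 CPM in shPla2g4e, without overlap, and a log2 fold change of 0.17 (SE 0.08, adjusted p = 0.169, edgeR). *Pdhb* (0.11), *Dlat* (−0.04), *Pdhx* (−0.06) and *Pdha1* (−0.10) had 95% intervals between −0.27 and 0.27.

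Pyruvate dehydrogenase kinases switch the complex off and *Pdp1*, a phosphatase, switches it back on. *Pdp1* had 71.0, 76.1 and 78.3 CPM in shCtrl and 88.8, 86.9 and 88.3 CPM in shPla2g4e. The groups did not overlap, with a log2 fold change of 0.23 (SE 0.08, adjusted p = 0.0664, edgeR; 0.0119 with the block). *Pdk1*, the kinase induced by low oxygen, had 78.2, 73.8 and 70.3 CPM in shCtrl and 89.1, 80.9 and 79.2 CPM in shPla2g4e, also without overlap (log2 fold change 0.17, SE 0.08, adjusted p = 0.221, edgeR). *Pdk3* (0.11), *Pdk2* (−0.02) and *Pdk4*, the kinase of fasting and fat oxidation (−0.08), overlapped between groups. *Pdk2* gave 49.96% to 52.7% of the kinase reads per kilobase in shCtrl and 46.98% to 50.3% in shPla2g4e, and the shares of all 4 kinases overlapped.

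The 29 genes that neither fit called had log2 fold changes between −0.21 and 0.23. Their 95% intervals reached −0.49 at the lowest and 0.45 at the highest. These genes were picked because neither fit called them, which leaves out members with larger estimates, so that nothing is read from these bounds for the set.

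Per kilobase of exon, the levels of the 37 genes in shCtrl spanned a ratio of 224 from the highest to the lowest. *Aldoa* was highest at 308 ± 29.1 CPM per kilobase (SD, n = 3), followed by *Bsg* (291 ± 27.2), *Gapdh* (168 ± 20.7), *Ldha* (166 ± 14.8) and *Tpi1* (144 ± 15.5). *Ldhb* was sixth at 130.0 ± 12.2 CPM per kilobase, beside *Pkm* at 128 ± 13.5. The lowest were *Slc16a3* (3.95 ± 1.09), *Pfkfb4* (3.57 ± 0.282) and *Hk2* (1.38 ± 0.477). Between neighbours in this order, the 3 libraries overlapped in 25 of 36 pairs, so that most neighbouring ranks do not differ beyond their spread. In shPla2g4e, *Ldhb* was at rank 17 with 36.1 ± 8.58 CPM per kilobase, *Pgk1* moved from rank 14 to 10, and *Bsg* and *Aldoa* exchanged the top ranks. The order depends on the length used and on the reads lost to pseudogenes. With the length of the longest coding transcript, added after the data were seen, *Gapdh* was at rank 2 (489.9 CPM per kilobase), *Pkm* at rank 5 (263.9) and *Ldhb* at rank 11 (156.5), with a ratio of 389 from the highest to the lowest.

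**Figure D4:**
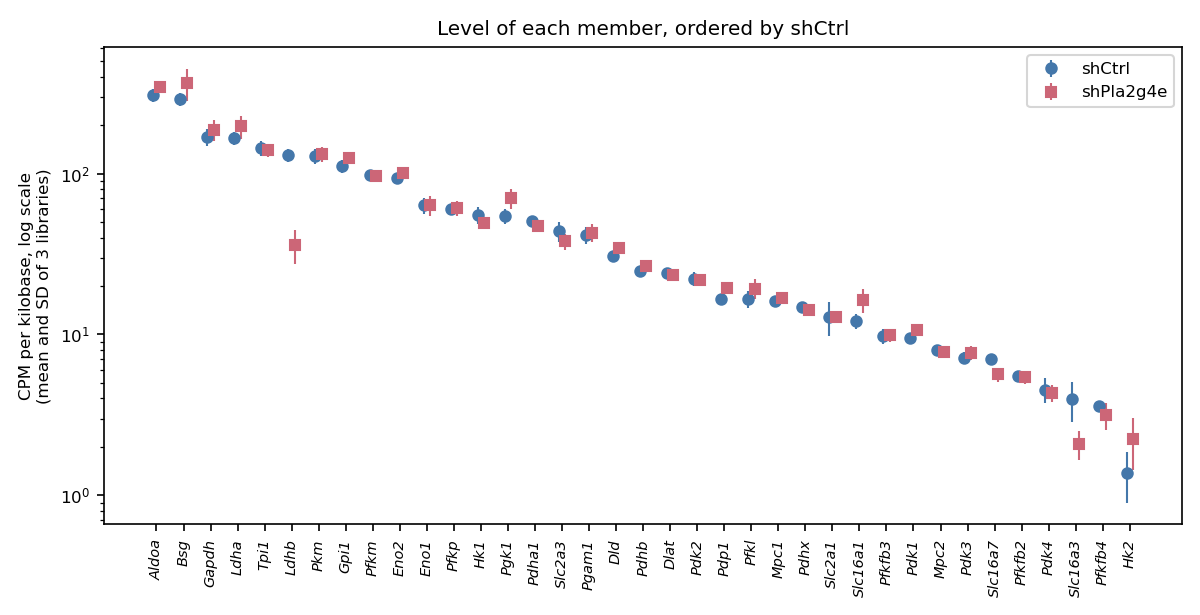
Level of each gene in CPM per kilobase (y axis, log scale; mean and SD of 3 libraries) in shCtrl (circles) and shPla2g4e (squares), ordered along the x axis by the shCtrl level. The squares lie farthest from the circles at *Ldhb* (130.0 against 36.1), *Slc16a3* (3.95 against 2.08) and *Hk2* (1.38 against 2.23).

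Genes of neighbouring pathways were taken from 8 lists of 129 genes, of which 128 were found by symbol and 123 tested. Of these, 5 were lower and 5 higher at an adjusted p of 0.01, with a median log2 fold change of −0.01, beside 6.49% and 0.03 over all genes. With the replicate block, 16 were lower and 9 higher, beside 15.5% of all genes in either direction. Without it, those lower were *Got1*, *Egln1*, *Gpd2*, *Idh1* and *Phka1*, and those higher *Hkdc1*, *Egln3*, *Adpgk*, *Pgam2* and *Gpd1*, the last 3 named after their values were seen. Fewer were called higher with limma, with stricter read filters and whenever a library was left out. The genes lost in each of these fits are not listed here.

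Among 19 other isozymes and regulators of glycolysis, 1 was lower and 4 higher. *Hkdc1*, a hexokinase domain protein, had 8.73, 6.84 and 6.39 CPM in shCtrl and 17.3, 16.7 and 15.5 CPM in shPla2g4e, a log2 fold change of 1.17 (SE 0.15, adjusted p = 6.74e-05, edgeR). *Gpd2*, the mitochondrial glycerol phosphate dehydrogenase, which passes electrons of cytosolic NADH to the respiratory chain, was lower, with 109.9 to 129 CPM in shCtrl and 84.9 to 86.0 CPM in shPla2g4e (log2 fold change −0.50, adjusted p = 0.000683), while its cytosolic partner *Gpd1* rose (0.61, adjusted p = 0.00902). *Adpgk*, an ADP-dependent glucokinase, rose by 0.46 on the log2 scale (adjusted p = 0.00418), and *Pgam2*, the muscle phosphoglycerate mutase, by 0.98 (adjusted p = 0.00885). *Gpd1* and *Pgam2* lay just under the threshold of 0.01. With the block *Aldoc*, the brain aldolase, was also lower (−0.28, adjusted p = 0.375, and −0.32 with adjusted p = 0.000134 in the blocked fit). *Aldoc* is also among the astrocyte markers summed above and is counted in both lists.

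*Got1*, the cytosolic aspartate aminotransferase of the malate-aspartate shuttle, the other route for NADH into mitochondria, had 145, 107 and 123 CPM in shCtrl and 54.4, 48.04 and 55.1 CPM in shPla2g4e. The groups lay far apart, with a log2 fold change of −1.25 (SE 0.10, adjusted p = 1.83e-06, edgeR). It was the single gene called of 5 in that list, and the next smallest p belonged to *Slc25a11*, a malate carrier (−0.08, adjusted p = 0.602).

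Of 20 oxygen- and energy-sensing regulators, 1 was lower and 1 higher, both prolyl hydroxylases that mark hypoxia-inducible factors for destruction. *Egln3* had 16.8, 12.6 and 11.9 CPM in shCtrl and 32.8, 26.8 and 21.7 CPM in shPla2g4e (log2 fold change 0.98, SE 0.16, adjusted p = 0.000593, edgeR). *Egln1* had 73.8 to 78.3 and 53.5 to 55.5 CPM (log2 fold change −0.49, SE 0.08, adjusted p = 0.000539, edgeR). Neither pair of groups overlapped. With the block *Vhl*, part of the ubiquitin ligase that binds the marked factors, was also lower (−0.32, adjusted p = 0.0251, and 0.00218 with the block).

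Of 21 genes of the tricarboxylic acid cycle list, 1 was lower, *Idh1*, the cytosolic isocitrate dehydrogenase (log2 fold change −0.44, adjusted p = 0.00154, edgeR), while at an unadjusted p under 0.05 3 were lower and 3 higher. *Cs*, citrate synthase, had −0.31 (adjusted p = 0.0146, and 7.05e-05 with the block). With the block *Idh3a*, a subunit of mitochondrial isocitrate dehydrogenase, was also lower (−0.27, adjusted p = 0.0278, and 0.000775 with the block), and the succinate dehydrogenase subunits *Sdhb* (0.27, adjusted p = 0.0375, and 0.00135 with the block) and *Sdhc* (0.28, adjusted p = 0.0241, and 0.00107 with the block) were higher, the 3 named after their values were seen. Of 16 glycogen genes tested, 1 was lower, *Phka1*, a regulatory subunit of phosphorylase kinase (−0.64, adjusted p = 0.00196), and *Gbe1*, the branching enzyme, had −0.46 (adjusted p = 0.022, and 0.00321 with the block). With the block *Phkg1*, a catalytic subunit of phosphorylase kinase, was also lower (−0.60, adjusted p = 0.155, and −0.64 with adjusted p = 0.00242 in the blocked fit) and *Pgm1*, a phosphoglucomutase, higher (0.26, adjusted p = 0.0543, and 0.00929 with the block). These additions to the lists, *Aldoc* and *Vhl* included, were named after their values were seen.

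No gene passed the edgeR test in the remaining 3 lists, in which 6 were lower and 3 higher at an unadjusted p under 0.05. Among 22 other lactate dehydrogenases and transporters, the smallest p belonged to *Slc2a6* (−0.34, adjusted p = 0.0153, and 0.00119 with the block) and *Slc16a14* (−0.40, adjusted p = 0.109, and 0.00294 with the block). Among 12 other genes of pyruvate metabolism it belonged to *Pdpr*, a regulator of the pyruvate dehydrogenase phosphatase (0.27, adjusted p = 0.0536, and 0.00754 with the block), and *Pcx*, pyruvate carboxylase (−0.27, adjusted p = 0.055, and 0.00812 with the block). Among 8 genes of the pentose phosphate pathway it belonged to *H6pd* (−0.55, adjusted p = 0.0286, and 0.00176 with the block) and *G6pdx* (−0.31, adjusted p = 0.0828, and 0.00876 with the block).

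**Figure D5:**
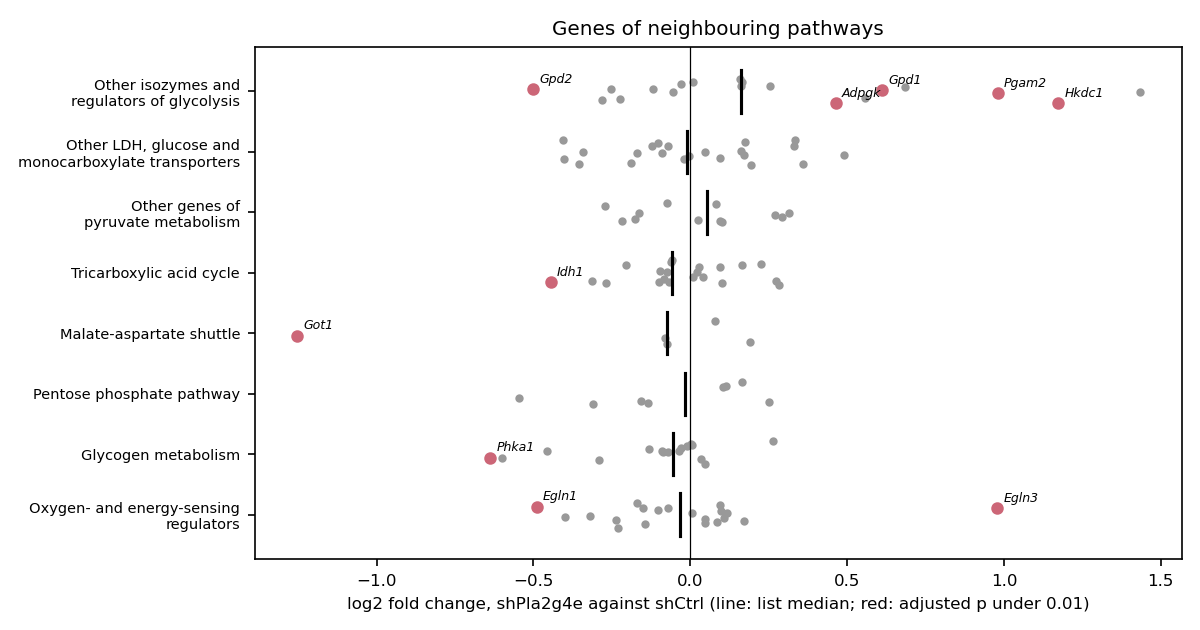
Log2 fold change (x axis) of the 123 tested genes of 8 neighbouring pathway lists (y axis, spread at random within a list to separate points); red points are DEGs and black lines list medians. Apart from the 5 lower and 5 higher DEGs, led by *Got1* at −1.25 and *Hkdc1* at 1.17, the medians lie between −0.07 and 0.16.

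The promoters of both lactate dehydrogenase genes are shown because the share of *Ldhb* did not overlap between groups. The stretch searched ran from 250 bases before to 50 after the RefSeq start (GRCm38.p6, first listed start of each gene), for ACGTG on either strand. ACGTG is a form of the core of the hypoxia response element, whose other form, GCGTG, was not searched. ACGTG also lies within the palindrome CACGTG and is then counted on both strands. The 250 bases before the start are printed, with matches in capitals, for *Ldha* (chr7:46845554-46845803, plus strand) and *Ldhb* (chr6:142507958-142508207, minus strand).
Ldha: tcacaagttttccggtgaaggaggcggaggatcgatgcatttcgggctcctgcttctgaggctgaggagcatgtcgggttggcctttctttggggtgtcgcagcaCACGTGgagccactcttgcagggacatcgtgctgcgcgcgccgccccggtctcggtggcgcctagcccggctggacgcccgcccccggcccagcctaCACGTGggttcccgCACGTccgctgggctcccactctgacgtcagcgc
Ldhb: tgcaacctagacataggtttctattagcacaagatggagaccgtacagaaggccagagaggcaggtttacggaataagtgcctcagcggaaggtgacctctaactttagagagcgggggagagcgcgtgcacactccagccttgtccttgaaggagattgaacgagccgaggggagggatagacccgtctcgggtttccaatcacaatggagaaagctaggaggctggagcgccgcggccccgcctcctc

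The *Ldha* stretch held 5 matches to ACGTG and the *Ldhb* stretch 0. The *Ldhb* stretch does hold GCGTG, which was not counted and stands in small letters. A match was found in 14 of the 33 members with a listed promoter (42.4%) and in 3301 of the 13780 genes tested with a listed promoter (24.0%). After *Ldha*, *Pfkm* and *Slc16a1* had 3 matches each, *Hk2*, *Pfkfb2*, *Pgk1*, *Slc16a3* and *Pdk2* 2 each, and *Slc2a1*, *Pfkfb3*, *Gapdh*, *Pgam1*, *Pdhb* and *Pdk3* 1 each. *Bsg*, *Slc16a7*, *Slc2a3* and *Pdp1* had no entry. A match describes letters only and says nothing of the factors at work in these cultures.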

How the data were processed

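The authors aligned reads from poly(A) RNA with STAR (version 2.7.0d per the labels) and counted them on exons with featureCounts 1.6.0. They deposited raw counts per gene, 1 file per library, without normalization. The methods name mm10 and GENCODE M18, whereas the file headers name GENCODE vM28 and the labels GRCm39. The recorded command holds no strand or multi-mapping option, so reads mapping to several places were left out and strands were not separated.

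Symbols, transcripts and 3′ UTRs came from GENCODE vM21 (GRCm38) through gene identifiers, which matched for 52081 of 55357 genes. The remaining genes took 0.286% to 0.387% of a library. *Aldoa* has a second identifier with few reads, not used here. Between 17054717 and 23570180 reads per library were counted. Genes that reached 6 reads in any library were tested with edgeR 4.0.16 (R 4.3.3; TMM, glmQLFit, glmQLFTest, Benjamini-Hochberg, threshold 0.01). This filter and threshold follow the study, which used limma after voom, run here as an alternative (limma 3.58.1) beside DESeq2 1.42.0, which gave no adjusted p for 5514 genes. SEs and 95% intervals come from the quasi-likelihood variance. Shares within isozymes used CPM per kilobase of the length column in the deposited counts.

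Labels number the libraries 1 to 3. Deviations from group means correlated at 0.393, 0.188 and 0.460 between same-numbered libraries and between −0.392 and 0.106 otherwise (11018 genes), so the numbers were treated as pairs.

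The members, the 8 pathway lists and the marker lists were chosen with earlier results of these data known. Named genes are all 37 members, with values per library for the 12 smallest p, and the 2 smallest p of each pathway list. Further pathway genes, and the markers *Olig2* and *Kdr*, were named after their values were seen. *Gyg1* was not found by symbol, and *Ldhc*, *Pdha2*, *Pck1*, *Fbp1* and *Fbp2* fell under the filter.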

Additional observations from a re-analysis of the deposited data

How the results depend on the processing

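Members higher numbered 0 in the reported fit, 1 with DESeq2, 2 with scaling by library size alone, 4 with no filter, 5 with the replicate block and 2 at an adjusted p of 0.05. Members lower stayed at 2 or 3 in these settings. Leaving out a library gave 1 or 2 lower and 0 to 4 higher, with the 4 higher (*Hk2*, *Pgk1*, *Slc16a1* and *Bsg*) called without shPla2g4e replicate 3. Other pathway genes lower numbered 8 with DESeq2, 11 at an adjusted p of 0.05 and 16 with the block, and 4 to 7 when a library was left out. Those higher numbered 3 with limma, 3 with at least 10 reads in every library, 3 with filterByExpr and 9 with the block, and 2 to 4 when a library was left out. DEGs over all genes numbered 2349 with no filter (1360 lower, 989 higher), 3395 with the block (1973 and 1422) and 2813 at an adjusted p of 0.05 (1599 and 1214), and 695 to 1613 when a library was left out (449 to 932 lower, 246 to 681 higher). The share of *Ldhb* was 27.2% and 8.28% with reads not divided by gene length, and 34.2% and 11.1% with the length of the longest coding transcript, an alternative added after the data were seen. It was 41.4% to 45.8% in shCtrl and 12.7% to 17.6% in shPla2g4e when a library was left out. The causes of these differences were not tested.

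*Ldhb* and *Pla2g4e* were called in all 16 other fits, at log2 fold changes of −2.06 to −1.74 and −1.14 to −0.83. *Slc16a3* was called in 13 of 16. No called gene changed sign. Of the 37 genes, 14, all uncalled, had the opposite sign in at least 1 setting. Beyond the values given beside each gene in the report, the block changed no call among members. Adding the reads counted on annotated pseudogenes, tried after the data were seen, does not recover reads that mapped to several places, and nothing is read from it.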
